A study of Rattus norvegicus with 20 samples.

Results

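Aminoacyl-tRNA synthetases are the enzymes that join each amino acid to its transfer RNA. Their transcripts were examined in cortical microglia, brain-resident macrophages, cultured from rats, after exposure to morphine or to agonists of Toll-like receptors. Members were chosen by symbol from a list of 36 synthetase genes. Of these, 34 were rows of the table of 17310 genes, namely 20 cytosolic enzymes and 14 of the 16 listed mitochondrial enzymes, whose symbols end in 2. MARS2 and IARS2 were not analysed here. All 34 passed the filter on low values, which required at least 1 FPKM (fragments per kilobase, scaled to a library's mapped fragments) in at least 4 libraries and left 8858 genes.

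Each of the 20 libraries came from CD11b-immunopanned cells of perfused male Sprague-Dawley rats aged 21 days. The cerebellum had been removed, and the cells had spent 5 days in serum-free medium before a 50% medium change delivered the treatment. The 5 groups of 4 libraries received PBS as the vehicle, morphine at 1 uM, LPS at 1 ng/mL, PAM3CSK4 at 1 ng/mL or zymosan at 100 ug/mL. How long the treatment lasted is not stated in the labels. No transgene or mutation is named in the labels, and cells enriched through CD11b and kept in culture model microglia outside the tissue. The protocol also names morphine at 10 uM, which was not analysed here. LPS is a ligand of Toll-like receptor 4, PAM3CSK4 is a synthetic lipopeptide ligand of Toll-like receptors 1 and 2, and zymosan is a yeast cell wall particle recognised by Toll-like receptor 2 and dectin-1. Nothing in the labels ties each library to its own animal or culture dish, so the p-values reflect the spread among libraries alone, and this spread may be technical.

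Cytosolic synthetases charge the transfer RNAs used by the ribosomes of the cytoplasm, and a separate set of nuclear genes encodes the enzymes imported for the ribosomes of the mitochondrion. GARS and KARS each encode both forms from 1 gene, EPRS carries the glutamyl and the prolyl activity in 1 polypeptide, and FARSA and FARSB encode the alpha and beta subunits of the cytosolic phenylalanyl enzyme, whereas FARS2 works as a monomer. Several cytosolic synthetase genes are known targets of ATF4, the transcription factor of the amino acid starvation response, which binds C/EBP-ATF response elements, and WARS is known as an interferon-induced gene in many cells.

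Promoters are shown here because 1 motif was found in several cytosolic genes and in no mitochondrial gene. RefSeq promoter windows of assembly GRCr8, each covering the bases around 1 annotated start, were matched for 17 of the 20 cytosolic genes (not for DARS, GARS or RARS) and for all 14 mitochondrial genes. The core of the C/EBP-ATF element was searched as TGATGNAA on both strands. It was present in 7 of the 17 cytosolic windows, in 0 of the 14 mitochondrial windows and in 1332 of all 33469 windows, or 3.98%. The 7 genes were AARS, which held it at 2 places, CARS, IARS, MARS, NARS, TARS and YARS. The stretches below run 5′ to 3′ on the strand of the gene, capitals mark the match on either strand, and each is shown with its GRCr8 position. In AARS the first match began 112 bases before the start, in IARS 24, in MARS 17 and in TARS 27 bases before it, and in CARS and YARS it lay 18 and 39 bases inside the transcript.
AARS, chr19:55908344-55908403, plus strand: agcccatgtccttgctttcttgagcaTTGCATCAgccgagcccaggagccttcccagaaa
IARS, chr17:15193653-15193712, minus strand: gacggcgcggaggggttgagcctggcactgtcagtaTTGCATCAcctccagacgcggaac
MARS, chr7:65023754-65023813, minus strand: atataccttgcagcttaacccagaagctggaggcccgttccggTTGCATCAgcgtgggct
TARS, chr2:62114803-62114862, minus strand: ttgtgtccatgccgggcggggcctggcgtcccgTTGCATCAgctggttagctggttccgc
CARS, chr1:208225334-208225363, minus strand: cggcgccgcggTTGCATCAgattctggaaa
YARS, chr5:146820190-146820212, plus strand: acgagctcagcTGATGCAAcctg

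In these stretches 5 of the 6 matches read TTGCATCA and that of YARS was its reverse complement TGATGCAA. A core of the interferon-stimulated response element, GAAANNGAA, was in 0 of the 17 cytosolic and 0 of the 14 mitochondrial windows, WARS included, and in 9.71% of all windows. These are descriptions of letters in the windows and not measurements of binding. The windows of HARS and HARS2, which are transcribed away from each other, shared 243 bases. The shared bases are of promoter windows and show no overlap of the 2 transcripts.

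The libraries fell into 2 sets that the labels do not name. The first component of the deviations from the group means, 63.2% of their variance, set apart 7 libraries, namely PBS 1, Morphine 1, Morphine 2, LPS 1, LPS 2, PAM3CSK4 1 and Zymosan 1, from the other 13. The 7 were every library numbered 1 together with Morphine 2 and LPS 2, so the sets followed the replicate numbers in part. All libraries numbered 3 or 4 were among the 13. All 34 synthetases were lower in the 7 than in the 13 after the treatments were accounted for, by a median of 0.70 on the log2 scale for the cytosolic and 0.55 for the mitochondrial genes, against 0.36 for all tested genes. IARS and VARS differed most between the sets, with log2 differences of -1.26 and -1.26, and EARS2, SARS and FARSA least, with -0.06, -0.17 and -0.20. The sets were defined from these values, so the differences are a description. The depth recovered from the steps between low FPKM values, relative to PBS 3, ranged between 1.26 and 1.68 in the 7 libraries and between 0.999 and 1.79 in the 13. The median level of the tested genes was 5.64 to 8.16 FPKM in the 7 and 8.12 to 10.9 FPKM in the 13. Genes above 0 numbered 9397 to 10296 in the 7 and 10155 to 10545 in the 13. What set the 7 apart was not tested. Results are given below for all 20 libraries, and the main ones also for the 13 alone. Fits on the 13 alone or with a term for the sets use a split drawn from these same values. Such a split lowers the spread left over, so the p-values of these fits may be too small.

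The identity of the cells was checked against their markers. All 11 microglial and macrophage genes reached 1 FPKM in at least 4 libraries, with summed levels of 2341 to 3095 FPKM in PBS, 2171 to 2907 with morphine and, among the agonists, 1446 to 2220 (LPS), 1532 to 2064 (PAM3CSK4) and 1676 to 2257 (zymosan). TYROBP, with means of 1348.5 FPKM in PBS and 1155.7 with LPS, was the largest part. With LPS the mean of CX3CR1 went from 68.7 to 2.33, CSF1R from 512 to 106 and TREM2 from 113 to 21.0 FPKM. AIF1 alone was higher, at 394 against 324 FPKM. P2RY12 was at 4.44 FPKM in PBS and at 0.182, 0.409 and 0.261 with LPS, PAM3CSK4 and zymosan. GFAP and AQP4 of astrocytes, RBFOX3, SYT1, STMN2 and NEFL of neurons, CLDN5 and RGS5 of blood vessels, MAG of oligodendrocytes, and MPO, ELANE, CD3E and CD3G of neutrophils and T cells were listed at 0 in every library. The 6 neuronal genes summed to 2.90 to 6.59 FPKM in PBS and 9.51 to 25.5 FPKM in the agonist groups, all of it from SNAP25 and TUBB3. The 8 genes of the oligodendrocyte lineage, mainly MBP and CSPG4, summed to 10.1 to 18.2 FPKM in PBS, 5.46 to 15.6 with morphine and 2.60 to 12.999 in the agonist groups. The 7 vascular genes summed to 6.96 to 19.2 FPKM in PBS, 7.03 to 20.3 with morphine and 5.69 to 21.0 with agonists, mainly FLT1, CDH5 and PECAM1. The 7 astrocyte genes summed to 1.71 to 4.72 FPKM in PBS, 0.846 to 3.16 with morphine and 0.712 to 5.54 with agonists, and the 7 genes of neutrophils and T cells to at most 1.49, 0.872 and 5.37 FPKM. With morphine the neuronal sum was 1.11 to 5.44 FPKM. The part of these genes in the synthetase results was not tested. In bulk RNA, fewer cells of a type and less RNA per cell cannot be told apart.

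In PBS the cytosolic synthetase transcripts were more abundant than the mitochondrial ones, with means of 19.1 FPKM or more against 8.66 FPKM or less. SARS, the seryl enzyme, was the highest at 92.9 ± 10.9 FPKM (SD, n = 4), followed by NARS for asparagine at 88.6 ± 13.4, KARS for lysine at 79.95 ± 10.8 and WARS for tryptophan at 67.5 ± 9.93 FPKM. GARS, MARS, RARS, TARS, AARS and YARS had means between 50.4 and 61.0 FPKM, HARS, FARSB, FARSA, EPRS and CARS between 31.0 and 42.3 FPKM, and DARS, VARS, QARS, LARS and IARS between 19.1 and 28.0 FPKM. Among the mitochondrial enzymes YARS2 had 8.66 ± 0.793, FARS2 8.55 ± 1.86, TARS2 7.69 ± 0.765, RARS2 6.14 ± 0.776, HARS2 6.05 ± 0.597 and SARS2 4.85 ± 1.66 FPKM (SD, n = 4). The other 8, from NARS2 at 3.27 down through LARS2, CARS2, PARS2, AARS2, WARS2 and EARS2 to VARS2 at 1.36 FPKM, were lower still. FPKM is scaled by length, so levels can be set side by side between genes.

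The order of the genes in PBS is a ranking of means whose neighbours mostly cannot be separated. The 4 libraries of each gene overlapped those of the next gene in the order everywhere except between TARS2 and RARS2. The lowest cytosolic and the highest mitochondrial gene also overlapped, because IARS stood at 8.89 FPKM in PBS 1, against 20.8 to 25.6 in the other 3 libraries, and YARS2 at 7.55 to 9.40 FPKM.

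**Figure D1:**
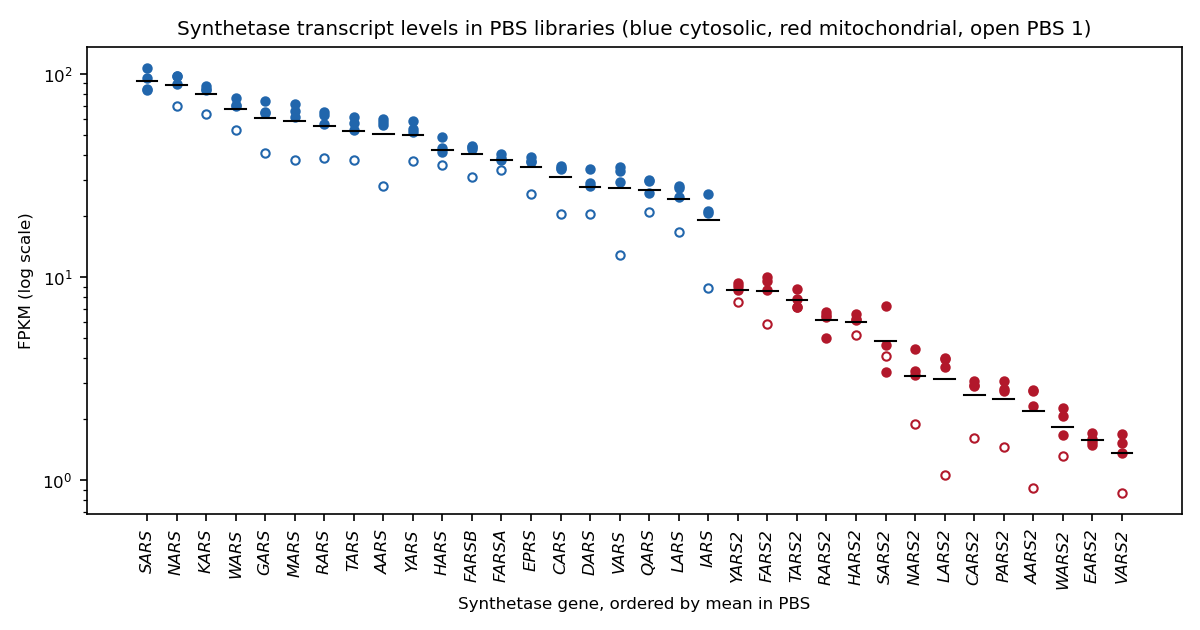
FPKM of the 34 synthetase genes in the 4 PBS libraries on a log axis, ordered by mean (black bar), blue for cytosolic and red for mitochondrial genes, with PBS 1 as an open circle. Cytosolic means run from 92.9 FPKM for SARS to 19.1 for IARS and mitochondrial means from 8.66 for YARS2 to 1.36 for VARS2, and PBS 1 is the lowest circle for most genes.

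The balance between the 2 compartments differed between the agonist groups and PBS in every library. Mitochondrial synthetases made up 6.14%, 5.73%, 6.14% and 5.56% of all synthetase FPKM in the 4 PBS libraries, and 6.28%, 6.38%, 6.17% and 5.76% with morphine. With LPS the share was 3.98%, 3.94%, 3.94% and 4.48%, while the PAM3CSK4 libraries held 3.10%, 3.82%, 4.25% and 3.72% and the zymosan libraries 3.77%, 4.25%, 5.08% and 4.06%. The highest agonist library, Zymosan 3, was below the lowest PBS library, and the morphine libraries overlapped PBS. The mean share was 5.89 ± 0.295% in PBS, 6.15 ± 0.272% with morphine, 4.08 ± 0.263% with LPS, 3.72 ± 0.476% with PAM3CSK4 and 4.29 ± 0.563% with zymosan (SD, n = 4 each).

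This share does not depend on how a library is scaled, because both sums come from the same library. In the 13 libraries alone it was 5.81% in PBS, 5.96% with morphine, 4.21% with LPS, 3.93% with PAM3CSK4 and 4.46% with zymosan. The mean log2(FPKM + 1) of the cytosolic genes exceeded that of the mitochondrial genes by 3.25 ± 0.10 in PBS and 3.19 ± 0.09 with morphine, against 3.49 ± 0.12 with LPS, 3.71 ± 0.07 with PAM3CSK4 and 3.56 ± 0.10 with zymosan (SD, n = 4). On this measure the lowest LPS library, at 3.36, was close to the highest PBS library, at 3.33. The cytosolic sum was 970 ± 172 FPKM in PBS, 751 ± 195 with LPS, 987 ± 233 with PAM3CSK4 and 956 ± 191 with zymosan, whereas the mitochondrial sum was 60.5 ± 9.57, 32.2 ± 9.59, 38.9 ± 12.6 and 43.4 ± 12.2 FPKM (SD, n = 4). The cytosolic sum over the 13 libraries was 1055 FPKM in PBS, 911 with LPS, 1101 with PAM3CSK4 and 1050 with zymosan, and the mitochondrial sum 65.0, 40.01, 45.1 and 49.02 FPKM. The 2 sums are scores over chosen members, so no test was made of them, and the 3 agonist comparisons share the PBS libraries.

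**Figure D2:**
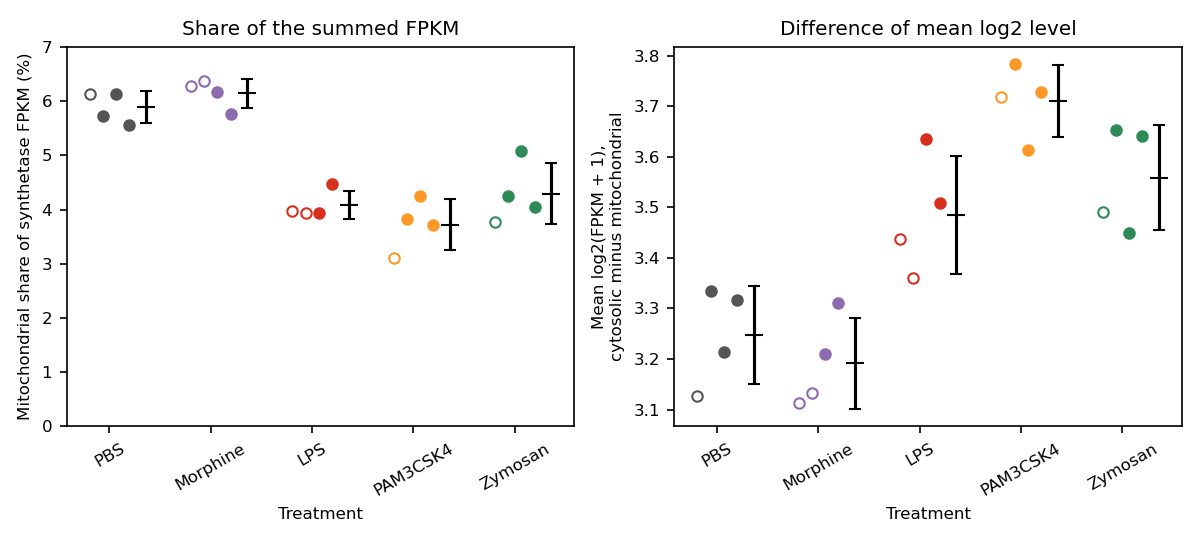
Left, the percentage of all synthetase FPKM that came from the 14 mitochondrial genes in each of the 20 libraries, and right, the mean log2(FPKM + 1) of the 20 cytosolic genes minus that of the 14 mitochondrial genes. Circles are libraries, open for the 7 that stood apart, bars are mean and SD of 4 libraries, and the 12 agonist libraries lie at 3.10% to 5.08% on the left, all below the 5.56% to 6.14% of PBS.

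The ranges of single genes were also compared. Over the 20 libraries, 5 mitochondrial and 2 cytosolic genes with LPS were below PBS in every library, where 26.3% of all tested genes were below and 5.18% above. With PAM3CSK4 5 mitochondrial genes and 1 cytosolic gene were below and 1 cytosolic gene was above (24.2% and 5.83% of all genes), and with zymosan 2 and 1 were below and none above (19.9% and 6.24%). With morphine all 34 members overlapped PBS (0.881% of all genes below and 0.158% above). In the 13 libraries, where the groups hold only 2 or 3 libraries, separate ranges were common among all genes. With LPS 12 mitochondrial and 14 cytosolic genes were below PBS there and 1 cytosolic gene was above, against 51.5% and 14.7% of all genes. With PAM3CSK4 8 mitochondrial and 5 cytosolic genes were below and 6 cytosolic genes above (43.6% and 14.8%), and with zymosan 7 and 4 were below and 5 cytosolic genes above (38.2% and 14.0%). With morphine 5 cytosolic genes and 1 mitochondrial gene were below and none above, against 11.4% and 4.38%.

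For each gene the treatments were compared with PBS on the log2(FPKM + 1) scale with limma, in a fit of 5 group means over the 20 libraries, and an adjusted p under 0.05 over all 8858 genes was called. With LPS, 7 of the 14 mitochondrial synthetases fell and none rose, against 27.3% of all tested genes called lower and 5.02% called higher. Of the 20 cytosolic synthetases 2 fell and none rose, and 0 of the 34 members were higher at an unadjusted limma p under 0.05. This fit held no term for the replicate numbers, and with such a term 11 cytosolic synthetases were called lower. No share of all tested genes is given for that term, so this count has no background rate. The median log2 difference was -0.76 for the mitochondrial and -0.49 for the cytosolic genes, with -0.37 for all tested genes. After the libraries were rescaled by median ratios, which moved the median of all genes to 0.00, the medians were -0.45 and -0.06, with 4 mitochondrial genes and FARSB still called lower and SARS called higher (0.57, limma adjusted p = 0.003287), where 13.6% and 12.3% of all genes were called lower and higher.

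With PAM3CSK4, 4 of the 14 mitochondrial synthetases fell and none rose, where 22.6% of all tested genes were called lower and 5.62% higher. Of the cytosolic enzymes FARSA fell and SARS rose. The median was -0.49 for the mitochondrial and -0.12 for the cytosolic genes, with -0.27 for all genes. After rescaling the cytosolic median turned to 0.19 and the mitochondrial one stayed negative at -0.27, with 5 cytosolic genes called higher and only CARS2 called lower, against 12% higher and 13.5% lower over all genes. With zymosan 1 cytosolic gene (FARSA) and 1 mitochondrial gene (CARS2) fell and none rose, where 14.2% of all tested genes were called lower and 4.66% higher. The medians were -0.13 and -0.41, with -0.18 for all genes, and 0.07 and -0.28 after rescaling, where SARS was called higher and CARS2 lower, against 8.28% higher and 9.26% lower over all genes.

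Of the 7 libraries that stood apart, LPS and morphine hold 2 each and the other groups 1 each. In the 13 libraries alone the cytosolic and mitochondrial medians were -0.28 and -0.59 for LPS. They were -0.05 and -0.43 for PAM3CSK4 and -0.13 and -0.39 for zymosan, while all genes had medians of -0.28, -0.22 and -0.18. These libraries gave more synthetase calls, but they were picked from these same values, so the calls are a description. With LPS 11 cytosolic and 8 mitochondrial genes fell and none rose, where 38.0% of all tested genes were called lower and 9.44% higher. With PAM3CSK4 8 mitochondrial genes fell, 4 cytosolic genes fell (DARS, FARSA, FARSB and MARS) and 6 rose (AARS, CARS, EPRS, SARS, TARS and WARS), against 36.6% lower and 11.7% higher over all genes. With zymosan 4 mitochondrial genes fell (CARS2, FARS2, LARS2 and PARS2), 5 cytosolic genes fell (DARS, FARSA, FARSB, MARS and VARS) and 3 rose (AARS, CARS and SARS), against 29.3% lower and 10.5% higher. With a term for the library set fitted over all 20 libraries, 11 cytosolic and 8 mitochondrial genes fell with LPS (40.6% of all genes lower, 9.74% higher). That fit gave 5 cytosolic genes lower, 5 higher and 8 mitochondrial genes lower with PAM3CSK4 (40.4% and 10.5%), and 4, 3 and 4 with zymosan (28.4% and 9.56%). No mitochondrial synthetase was called higher in any agonist comparison, in any of these fits.

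**Figure D3:**
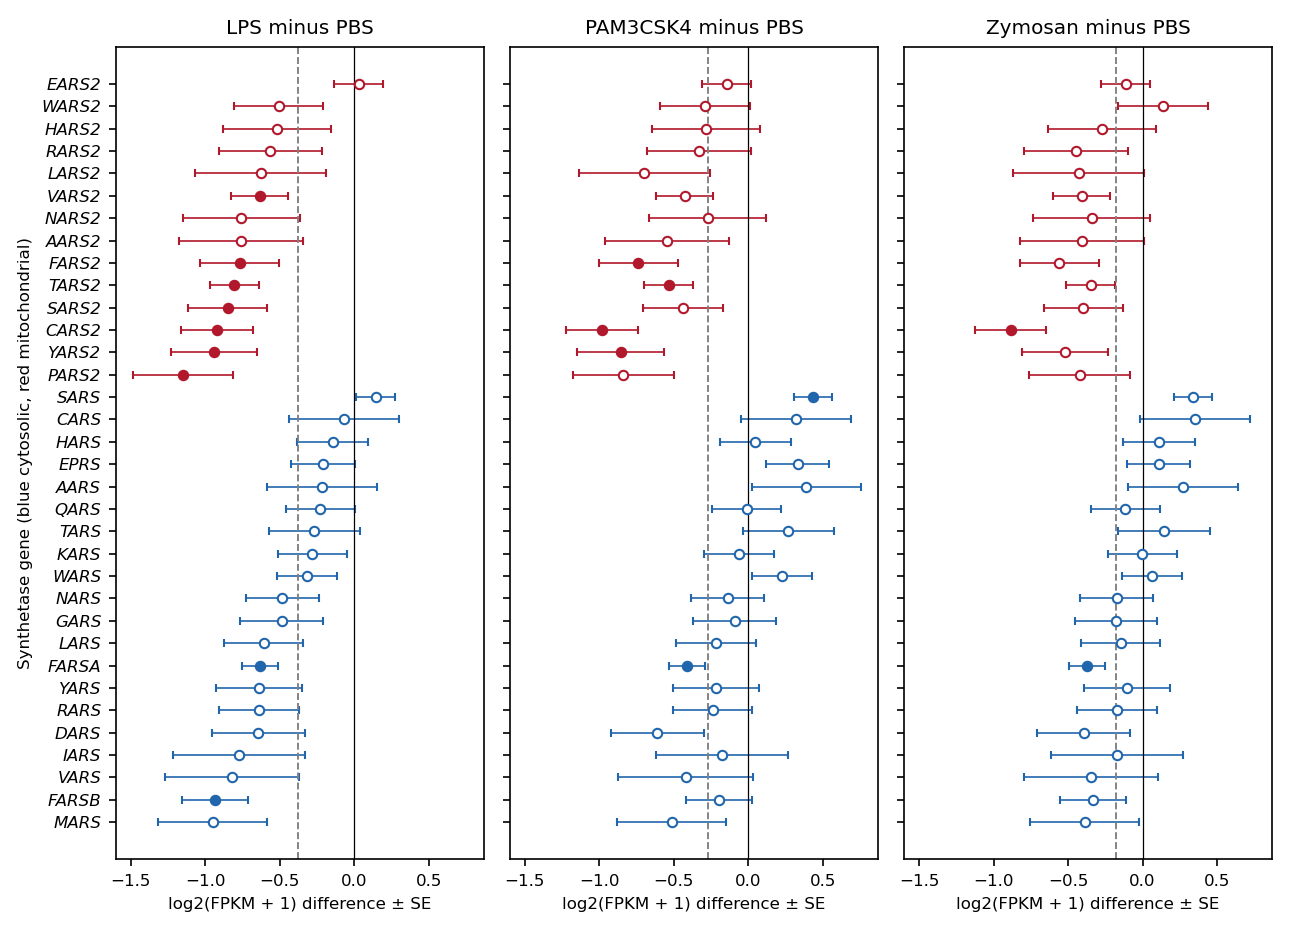
Difference in log2(FPKM + 1) from PBS for each synthetase with LPS, PAM3CSK4 and zymosan over all 20 libraries, blue for cytosolic and red for mitochondrial genes, filled where the limma adjusted p was under 0.05, with bars of 1 SE and a dashed line at the median of all tested genes. The red circles lie mostly to the left of the dashed line in all 3 panels, at medians of -0.76, -0.49 and -0.41, and after median-ratio rescaling the cytosolic medians with PAM3CSK4 and zymosan, -0.12 and -0.13 here, were above 0.

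Among the mitochondrial enzymes CARS2, which charges cysteine, was the member called lower with all 3 agonists. Its levels were 1.62, 2.91, 3.09 and 2.94 FPKM in PBS and 1.84, 2.30, 2.95 and 2.56 FPKM with morphine. They were 0.563, 0.836, 1.18 and 1.06 FPKM with LPS, listed at 0 and then 0.806, 1.56 and 1.33 FPKM with PAM3CSK4, and 0.726, 0.799, 1.18 and 1.09 FPKM with zymosan. Every agonist library was below every PBS library, and the morphine libraries lay within the PBS range. The log2 difference was -0.92 with LPS, -0.98 with PAM3CSK4 and -0.89 with zymosan (SE 0.24 each), with limma adjusted p of 0.006279, 0.004395 and 0.01285. With a pseudocount of 0.1 FPKM the adjusted p was 0.07988 with LPS and 0.145 with zymosan. The levels of CARS2 rested on few fragments, since its values were whole multiples of a step that gave 28, 59, 35 and 40 steps in PBS and 8, 15, 19 and 12 with LPS. With the value listed at 0 taken as missing, the difference with PAM3CSK4 was -0.70 (limma adjusted p = 0.01154).

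TARS2, the threonyl enzyme, and YARS2, the tyrosyl enzyme, were called lower with LPS and with PAM3CSK4. TARS2 was at 7.13, 7.81, 8.73 and 7.10 FPKM in PBS, 3.32, 3.52, 3.79 and 5.51 FPKM with LPS, 5.08, 5.57, 5.19 and 4.18 FPKM with PAM3CSK4, and 4.79, 6.17, 6.17 and 6.19 FPKM with zymosan. None of these agonist libraries reached the PBS range. The log2 differences were -0.80, -0.53 and -0.35 (SE 0.17), with limma adjusted p of 0.001011, 0.02089 and 0.1658. For PAM3CSK4 the call was lost without PBS 2 (adjusted p = 0.05052), PBS 3 (0.06655) or PAM3CSK4 4 (0.06992), and after rescaling.

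YARS2 was at 7.55, 9.40, 8.67 and 9.01 FPKM in PBS, 4.55, 4.12, 3.31 and 4.19 FPKM with LPS, 1.29, 6.69, 5.99 and 5.48 FPKM with PAM3CSK4, and 3.93, 5.84, 8.83 and 5.13 FPKM with zymosan. LPS and PAM3CSK4 libraries did not overlap PBS, and PAM3CSK4 1 was far below the other 3, while Zymosan 3 lay among the PBS values. The log2 differences were -0.94, -0.86 and -0.52 (SE 0.29), with limma adjusted p of 0.01871, 0.0335 and 0.2547. Without PAM3CSK4 1 the difference with that agonist was -0.45 (adjusted p = 0.09991). Without PBS 2, 3 or 4 the adjusted p was 0.08069, 0.0655 and 0.07039, and after rescaling neither call held, whereas both held in the 13 libraries.

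FARS2, the mitochondrial phenylalanyl enzyme, was called with LPS and PAM3CSK4 but close to the threshold. Its levels were 5.89, 9.63, 9.99 and 8.70 FPKM in PBS, 5.06, 2.46, 5.38 and 5.91 FPKM with LPS, 2.88, 5.80, 4.74 and 5.65 FPKM with PAM3CSK4 and 3.44, 4.58, 7.78 and 6.63 FPKM with zymosan. PBS 1 sat at the top of the LPS range, and PAM3CSK4 libraries stayed below all PBS libraries. The log2 differences were -0.77, -0.74 and -0.56 (SE 0.27), with limma adjusted p of 0.03337, 0.04439 and 0.1672. Leaving out PBS 2, PBS 3, PBS 4 or LPS 2 raised the adjusted p with LPS to 0.08789, 0.09198, 0.07038 and 0.1327. With PAM3CSK4 the adjusted p was 0.1139, 0.1164, 0.0883, 0.1465 and 0.07122 without PBS 2, PBS 3, PBS 4, PAM3CSK4 1 or PAM3CSK4 3. After rescaling neither call held, at -0.40 with LPS and -0.47 with PAM3CSK4 (adjusted p = 0.1329 and 0.07719). The adjusted p with LPS was 0.05021 when only LPS and PBS were fitted, and that with PAM3CSK4 was 0.05187 with a pseudocount of 0.1 FPKM and 0.06019 without the filter on low values.

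In the fit of 5 group means PARS2, SARS2 and VARS2 were called with LPS and not with the other agonists. PARS2, the prolyl enzyme, was at 1.46, 3.08, 2.81 and 2.74 FPKM in PBS, and at 0.232, then listed at 0, then 0.752 and 1.75 FPKM with LPS. With PAM3CSK4 it was at 0.0614, 1.41, 1.401 and 1.28 FPKM, and with zymosan at 1.38, 1.17, 2.12 and 1.77 FPKM. LPS 4, Zymosan 3 and Zymosan 4 were above PBS 1, and no PAM3CSK4 library reached PBS. The log2 difference with LPS was -1.15 (SE 0.34, limma adjusted p = 0.01354). It was -0.94 without LPS 2 (adjusted p = 0.05551), and with PAM3CSK4 it was -0.84 (adjusted p = 0.07192) and with zymosan -0.42 (0.4642). PARS2 was called lower with those agonists in the 13 libraries, at -0.72 and -0.55 (adjusted p = 0.009163 and 0.04034).

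SARS2, the seryl enzyme, was at 4.11, 7.24, 4.64 and 3.43 FPKM in PBS, 1.37, 1.30, 3.21 and 3.35 FPKM with LPS, 2.17, 4.56, 3.68 and 2.75 FPKM with PAM3CSK4 and 2.71, 4.79, 3.75 and 2.42 FPKM with zymosan. LPS lay just below PBS in every library, and the other agonists overlapped it. The log2 difference with LPS was -0.85 (SE 0.27, limma adjusted p = 0.02017), and the adjusted p was 0.08489 without PBS 2, 0.07313 without LPS 1 and 0.07465 without LPS 2. The call was also absent after rescaling and in the 13 libraries.

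VARS2, the valyl enzyme and the lowest member, was at 0.867, 1.70, 1.52 and 1.36 FPKM in PBS, 0.434, 0.172, 0.549 and 0.974 FPKM with LPS, 0.419, 0.517, 1.02 and 1.10 FPKM with PAM3CSK4 and 0.418, 1.14, 0.869 and 0.697 FPKM with zymosan. LPS 4 overlapped PBS 1 and the rest of LPS did not. The log2 difference with LPS was -0.64 (SE 0.19, limma adjusted p = 0.01541), with adjusted p of 0.05353 without PBS 2 and 0.06027 without LPS 2. It held after rescaling, at -0.45 (adjusted p = 0.04706). VARS2 was also called lower with PAM3CSK4 in the 13 libraries, at -0.44 (adjusted p = 0.04532), and with the library-set term with PAM3CSK4 and zymosan, at -0.43 and -0.41 (0.01728 and 0.02891).

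The other 7 mitochondrial synthetases passed no test in the fit of 5 group means. For AARS2, HARS2, LARS2, NARS2, RARS2 and WARS2 the log2 differences with LPS ran from -0.76 to -0.51, with PAM3CSK4 from -0.70 to -0.27 and with zymosan from -0.45 to 0.14, the last being WARS2. EARS2, which charges glutamate, was at 0.03 with LPS, -0.14 with PAM3CSK4 and -0.11 with zymosan (SE 0.16). LARS2, for leucine, was called lower with all 3 agonists in the 13 libraries, at -0.70, -0.63 and -0.48 (limma adjusted p = 0.004151, 0.003742 and 0.0207). AARS2, for alanine, was called there with LPS and PAM3CSK4, at -0.54 and -0.42 (adjusted p = 0.02649 and 0.04718), and was listed at 0 in PAM3CSK4 1 against 1.39 to 2.15 FPKM in the other 3. With the library-set term AARS2 was called with LPS and PAM3CSK4 and LARS2 with PAM3CSK4 (limma adjusted p = 0.01926, 0.008061 and 0.006769), and NARS2, for asparagine, was called with LPS when only LPS and PBS were fitted (0.04034).

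The cytosolic enzymes did not move as a block. FARSA, the alpha subunit of the phenylalanyl enzyme, was at 33.6, 40.5, 38.9 and 37.9 FPKM in PBS and 30.8, 31.2, 39.1 and 35.3 FPKM with morphine. It was at 24.2, 19.98, 25.5 and 26.4 FPKM with LPS, 26.02, 29.1, 27.3 and 30.1 FPKM with PAM3CSK4, and 27.04, 29.7, 28.7 and 30.2 FPKM with zymosan. All 12 agonist libraries were below the lowest PBS library, and morphine overlapped PBS. The log2 differences were -0.63, -0.41 and -0.37 (SE 0.12), with limma adjusted p of 0.00047, 0.01446 and 0.03529. Without PBS 2 the PAM3CSK4 difference was -0.38 (adjusted p = 0.0504). The zymosan call was lost when any of 7 libraries was left out (adjusted p up to 0.1095, without PBS 2) and held only without PBS 1. None of the 3 calls held after rescaling, and all 3 held in the 13 libraries.

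FARSB, the beta subunit of the same enzyme, was at 31.1, 42.7, 43.9 and 44.2 FPKM in PBS, 17.2, 14.7, 24.3 and 28.2 FPKM with LPS, 28.1, 40.4, 35.4 and 36.3 FPKM with PAM3CSK4 and 23.7, 33.4, 34.6 and 36.2 FPKM with zymosan. LPS libraries did not overlap PBS, whereas the other agonists did through PBS 1. The log2 difference was -0.94 with LPS (SE 0.22, limma adjusted p = 0.003141), -0.20 with PAM3CSK4 (0.5608) and -0.33 with zymosan (0.3576). The LPS call held in each of the 8 fits that left out 1 library of the 2 groups and after rescaling, at -0.52 (adjusted p = 0.003293). PAM3CSK4 minus LPS was 0.74 (95% interval 0.27 to 1.204), and its limma adjusted p of 0.9885 did not pass, so the 2 agonists were not shown to differ.

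SARS, the seryl enzyme, went the other way. It was at 83.7, 107, 85.0 and 96.0 FPKM in PBS, 81.5, 67.5, 79.1 and 94.0 FPKM with morphine, and 116, 88.2, 107 and 99.8 FPKM with LPS. With PAM3CSK4 it was at 108, 142, 129 and 124 FPKM, and with zymosan at 106, 123, 115 and 125 FPKM. The PAM3CSK4 libraries were all above PBS, while 1 zymosan library and 2 LPS libraries lay within the PBS range. The log2 differences were 0.14, 0.43 and 0.34 (SE 0.13), with limma adjusted p of 0.4107, 0.01658 and 0.07894. Without PBS 3 the PAM3CSK4 difference was 0.39 (adjusted p = 0.05365) and without PAM3CSK4 2 it was 0.37 (0.05932). After rescaling all 3 were called, at 0.57, 0.74 and 0.54 (adjusted p = 0.003287, 0.000326 and 0.007449).

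**Figure D4:**
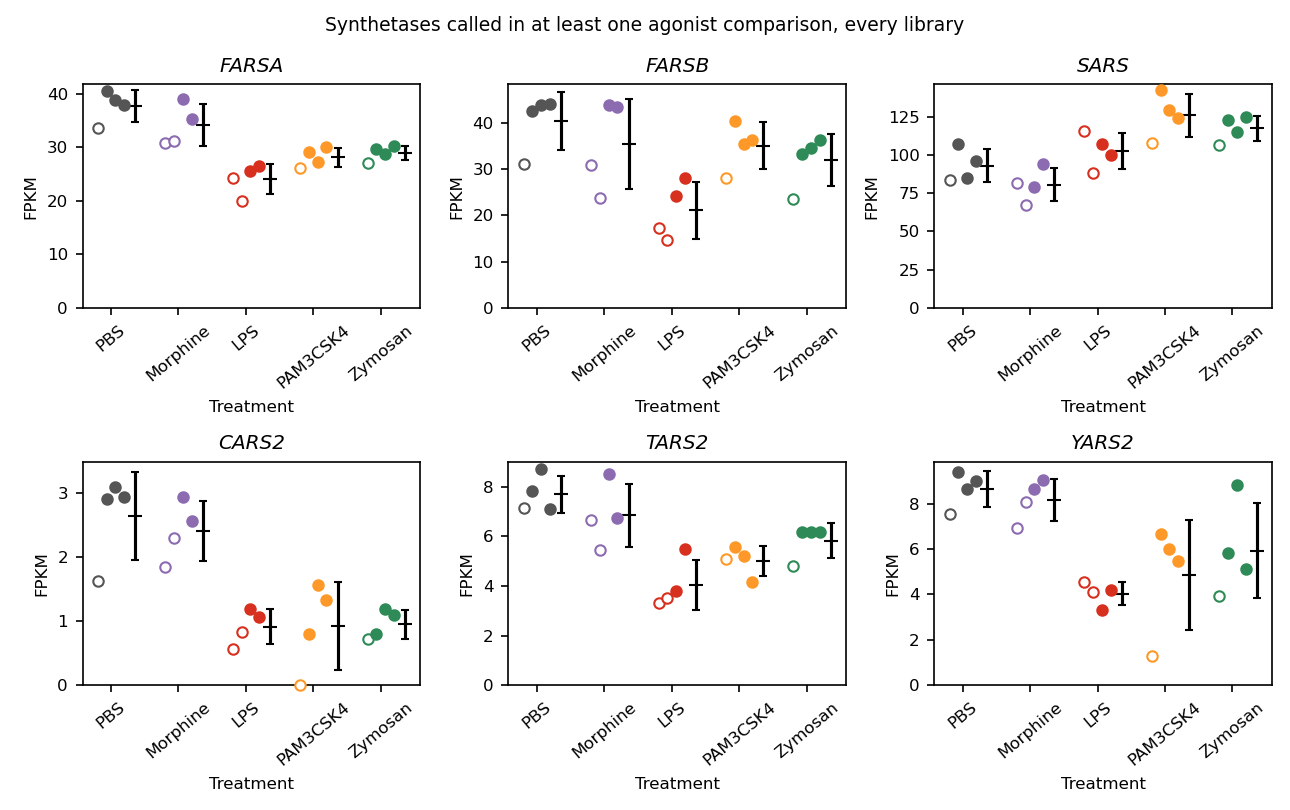
FPKM of FARSA, FARSB, SARS, CARS2, TARS2 and YARS2 in each of the 20 libraries by treatment, with open circles for the 7 libraries that stood apart and bars for the mean and SD of 4 libraries. SARS lies above PBS in all 4 PAM3CSK4 libraries, and CARS2, TARS2 and FARSA lie below PBS in all 12 agonist libraries, the FARSA calls being lost after median-ratio rescaling.

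The remaining 17 cytosolic synthetases were not called in the fit of 5 group means without rescaling. Those that hold the C/EBP-ATF letters did not share 1 direction with PAM3CSK4 or zymosan, while with LPS their differences in that fit were all negative. AARS, for alanine, was at 28.0, 56.4, 59.98 and 58.4 FPKM in PBS and 37.0, 76.9, 78.8 and 74.0 FPKM with PAM3CSK4, and CARS, for cysteine, at 20.5, 35.2, 34.4 and 34.1 and at 19.5, 44.97, 48.3 and 49.5 FPKM. In both, library 1 of each group was low and the other 3 PAM3CSK4 libraries were above the other 3 PBS libraries. In the 13 libraries AARS differed by 0.39 with PAM3CSK4 and 0.28 with zymosan (limma adjusted p = 0.000589 and 0.005561), and CARS by 0.45 and 0.45 (0.000441 and 0.000599). MARS, for methionine, which holds the same letters, differed there by -0.64 with LPS, -0.41 with PAM3CSK4 and -0.38 with zymosan (adjusted p = 0.000442, 0.003794 and 0.007454). TARS, for threonine, was higher only with PAM3CSK4 in those libraries (0.33, adjusted p = 0.02677). IARS, NARS and YARS were lower there with LPS, at -0.45, -0.28 and -0.45 (adjusted p = 0.01748, 0.01841 and 0.002759).

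The other cytosolic genes, among them DARS, GARS and RARS without a matched window, also went in both directions in the 13 libraries. EPRS, for glutamate and proline, and WARS, for tryptophan, were higher with PAM3CSK4, at 0.31 and 0.25 (limma adjusted p = 0.00249 and 0.04446). After rescaling of all 20 libraries AARS, EPRS, TARS and WARS were called higher with PAM3CSK4, at 0.70, 0.64, 0.58 and 0.53. VARS, for valine, was lower with LPS and zymosan, at -0.65 and -0.35 (0.002875 and 0.04458), and LARS with LPS at -0.45 (0.01031). DARS, for aspartate, was lower with all 3 agonists, at -0.40, -0.39 and -0.38 (0.01238, 0.008199 and 0.01191), and GARS and RARS with LPS, at -0.28 and -0.39 (0.02885 and 0.01328). HARS, KARS and QARS were called in none of these comparisons, either in the 13 libraries or after rescaling.

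The cytosolic genes were also split by the fold of the catalytic domain and by membership of the multisynthetase complex, a cytoplasmic assembly of several synthetases. With LPS the median was -0.62 for the 10 class I enzymes and -0.38 for the 10 class II enzymes, and -0.62 for the 8 enzymes of the complex (DARS, EPRS, IARS, KARS, LARS, MARS, QARS and RARS) and -0.40 for the other 12. With PAM3CSK4 the medians were -0.20 and -0.08, and -0.20 and -0.02. After rescaling those of the complex were -0.20 with LPS and 0.10 with PAM3CSK4. No enzyme of the complex was called in the fit of 5 group means. With the library-set term DARS, IARS, LARS, MARS and RARS were called lower with LPS (limma adjusted p = 0.0164, 0.001155, 0.004089, 4.837e-05 and 0.0006833). That fit called 40.6% of all tested genes lower with LPS. With PAM3CSK4 3 enzymes of the complex were lower and 1 higher there, against 40.4% and 10.5% of all genes. With zymosan 2 were lower, against 28.4%. The differences between these groups of genes were not tested.

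Each mitochondrial gene was also set against the cytosolic gene of the same amino acid, as the difference of their log2(FPKM + 1) values within a library, which gave 14 pairs. Relative to PBS the mean of this difference was higher in 11 pairs with LPS, in all 14 with PAM3CSK4 and in 13 with zymosan, but in 6 with morphine. The medians were 0.29, 0.50, 0.33 and -0.09. All libraries of the treatment were above all of PBS in 4 pairs with LPS, 6 with PAM3CSK4, 3 with zymosan and 0 with morphine. Such separation was not counted for other pairs of genes, so these numbers have no background rate. Among single tested genes 26.3%, 24.2% and 19.9% lay below PBS in every library with LPS, PAM3CSK4 and zymosan. EPRS enters the pairs of both EARS2 and PARS2. The pair of CARS and CARS2 moved by 0.85, 1.30 and 1.23, that of AARS and AARS2 by 0.54, 0.94 and 0.68, and that of EPRS and PARS2 by 0.94, 1.17 and 0.53, each without overlap with PBS. The pair of SARS and SARS2 moved by 0.99 and 0.87 without overlap with LPS and PAM3CSK4 and by 0.73 with overlap with zymosan. The pairs of VARS and VARS2, at -0.18, 0.01 and 0.06, and of RARS and RARS2, at -0.08, 0.09 and 0.27, were near 0. Over the 13 libraries the mean was above that of PBS in 11, 13, 13 and 5 pairs with LPS, PAM3CSK4, zymosan and morphine. There the pair of RARS and RARS2 was at -0.03 with PAM3CSK4 and -0.02 with zymosan, and that of SARS and SARS2 at 0.58 with LPS. No test was made of these ratios, and the comparisons share the PBS libraries.

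**Figure D5:**
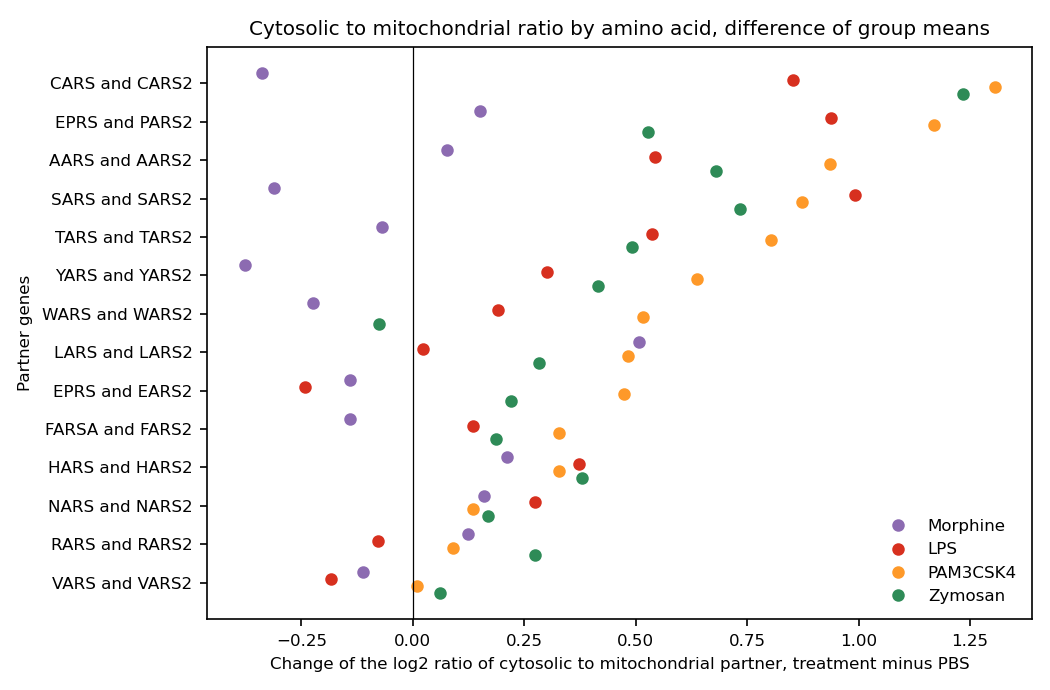
Change from PBS in the difference of log2(FPKM + 1) between the cytosolic and the mitochondrial gene of each amino acid, as differences of group means over 4 libraries, for morphine, LPS, PAM3CSK4 and zymosan. CARS and CARS2 are at 0.85, 1.30 and 1.23 with LPS, PAM3CSK4 and zymosan, and all 14 PAM3CSK4 circles are above 0, while the morphine circles lie on both sides.

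No synthetase was called with morphine. None of the 34 members passed in limma, and none had an unadjusted p under 0.05, and none of the 8858 tested genes was called (0%), of which 104 had an unadjusted limma p under 0.05. The 20 cytosolic genes all had negative differences over the 20 libraries, with a median of -0.23, and the mitochondrial median was -0.21, against -0.16 for all genes. In the 13 libraries the medians were -0.07 and -0.04, and the morphine group holds 2 of the 7 libraries that stood apart where PBS holds 1. In the fit of 5 group means no synthetase was called between agonists: PAM3CSK4 against LPS, zymosan against LPS and zymosan against PAM3CSK4 gave 0 called members, where 0.0339%, 0.0903% and 0% of all genes were called. An unadjusted limma p under 0.05 was reached by 4 cytosolic members with PAM3CSK4 against LPS, by 2 cytosolic (FARSA, FARSB) and 3 mitochondrial members (PARS2, TARS2, WARS2) with zymosan against LPS and by 0 with zymosan against PAM3CSK4, all higher than with LPS. The 4, EPRS, FARSB, SARS and WARS, differed by 0.54, 0.74, 0.29 and 0.54, each with a limma adjusted p of 0.9885. The unadjusted counts between agonists are given without the share of all tested genes, so they have no background rate. With the library-set term 2 synthetases were called between PAM3CSK4 and LPS (0.124% of all genes) and 1 between zymosan and LPS (1.08%). With that term and rescaling 1 was called between PAM3CSK4 and LPS (0.147%). In the 13 libraries alone 0 were called in each of the agonist comparisons. Synthetase calls between agonists thus appeared with the library-set term and not in the 13 libraries.

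Other genes of the pathway were followed from lists, whose counts stand against the 27.3%, 22.6% and 14.2% of all tested genes called lower and the 5.02%, 5.62% and 4.66% called higher with LPS, PAM3CSK4 and zymosan. Of the 3 scaffold proteins of the multisynthetase complex, EEF1E1 fell from 50.8 ± 2.40 FPKM in PBS to 32.7 ± 3.46 with LPS and 37.2 ± 8.34 with PAM3CSK4 (SD, n = 4; limma adjusted p = 0.00371 and 0.02667), calls that were lost after rescaling. AIMP1 and AIMP2 were not called. Of 17 tested genes of ATF4 and its targets other than synthetases, 2 rose and 6 fell with LPS, 3 rose and 4 fell with PAM3CSK4, and 2 rose and 3 fell with zymosan. After rescaling, where 12.3%, 12% and 8.28% of all genes were called higher and 13.6%, 13.5% and 9.26% lower, the numbers that rose were 3, 6 and 2 and those that fell 4, 2 and 2. ATF4 itself rose from 248 ± 18.8 FPKM to 314 ± 37.3, 386 ± 37.2 and 336 ± 20.5 FPKM (adjusted p = 0.02268, 0.0001891 and 0.006414). PHGDH, the first enzyme of serine synthesis, fell from 68.0 ± 2.27 to 12.2 ± 1.96, 21.7 ± 6.41 and 24.2 ± 4.07 FPKM (adjusted p = 2.489e-07, 1.947e-05 and 0.0001141). The transcript of NUPR1, a stress-induced nuclear protein, rose with all 3, and ASNS, asparagine synthetase, was not called over 20 libraries, at 43.4 ± 5.46 FPKM in PBS and 53.8 ± 10.2 with PAM3CSK4 (adjusted p = 0.3397).

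Of 14 tested amino acid transporters, 2 rose and 1 fell with LPS, 3 rose with PAM3CSK4 and 3 rose with zymosan. The one that fell was SLC1A5, a glutamine carrier. After rescaling 6, 4 and 5 rose and 1, 0 and 0 fell. SLC7A2, a carrier of arginine and lysine, rose from 0.730 ± 0.351 FPKM to 69.7 ± 41.7, 64.0 ± 31.4 and 53.2 ± 23.4 FPKM, and SLC7A11, the cystine carrier, from 4.55 ± 1.61 to 18.9 ± 2.71, 25.4 ± 5.48 and 19.2 ± 6.94 FPKM (SD, n = 4). The limma adjusted p with LPS was 4.329e-07 for SLC7A2 and 2.525e-05 for SLC7A11.

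Mitochondrial translation factors, which act on the same organelle as the mitochondrial synthetases, fell in 6 of 15 tested with LPS, 2 with PAM3CSK4 and 1 with zymosan, and none rose in the fit of 5 group means. The release factor gene MTRF1L was called with all 3, from 5.68 ± 1.47 FPKM to 2.56 ± 0.940, 2.87 ± 0.443 and 2.76 ± 0.909 FPKM (SD, n = 4; limma adjusted p = 0.005369, 0.01989 and 0.01696). TUFM, the elongation factor of mitochondrial ribosomes, fell with LPS from 42.8 ± 5.68 to 29.1 ± 6.81 FPKM (adjusted p = 0.04485). After rescaling 1, 0 and 0 of the 15 were called lower, the 1 being QRSL1, a subunit of the amidotransferase that makes mitochondrial glutaminyl-tRNA. Of 17 cytosolic translation factors 1 rose with each agonist, EIF1, and 2 fell with LPS, and after rescaling 3, 4 and 3 rose and none fell. Of 20 tested interferon-induced genes 1 rose and 9 fell with LPS, 2 rose and 6 fell with PAM3CSK4, and 1 rose and 4 fell with zymosan, and after rescaling 2, 3 and 2 rose and 4, 2 and 2 fell. With morphine none of the genes of these lists was called.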

How the data were processed

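The authors deposited FPKM values (fragments per kilobase, scaled to mapped fragments) of 17310 gene symbols in 20 libraries, without counts. Per the submitters' processing notes HISAT2 2.0.5.1, Cufflinks 2.2.1, featureCounts 1.4.6, DESeq2 and the build rn6 were used, with no role given for each. Smart-Seq2 and Nextera XT were used for library preparation, per the labels' protocols.

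Values were tested as log2(FPKM + 1) over 8858 genes that reached 1 FPKM or more in 4 or more libraries, in limma 3.58.1 (R 4.3.3) with 5 group means, a mean-variance trend and two-sided tests. The Benjamini-Hochberg adjustment covered all tested genes of a contrast. This scale understates the fold changes of weakly expressed genes. The script was tested on simulated data. The members and lists were chosen with earlier results of these data known. Members named by library were those called with any agonist.

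FPKM is relative to each library's total. Low values are whole multiples of the worth of 1 step (1 read, or a pair counted together). All 190 pairs of libraries gave offsets within 0.06 log2 of a common solution, so relative but not absolute depth is known. All 14 mitochondrial members gave whole steps (within 0.02), from 0 to 428. The alternatives tried were median-ratio rescaling, a pseudocount of 0.1 FPKM, no filter, 2 groups only, a replicate block, leaving out each library and, chosen after seeing the data, a library-set term with and without rescaling, the 13 libraries alone and zeros as missing. Promoters are from RefSeq (GRCr8), linked by symbol or synonym only, since the files' build was rn6. Plots were drawn with Python 3.11.15 and matplotlib 3.10.9.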

Additional observations from a re-analysis of the deposited data

Results flagged for a closer look

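Of 170 combinations of a synthetase and a group of 4 libraries, 18 held 1 library far from the other 3, and chance gives about 1 in 20. All 18 were low, and all were in the 7 libraries that stood apart: 7 in PBS 1, 7 in PAM3CSK4 1, 3 in Zymosan 1 and 1 in Morphine 2. AARS was at 28.0 FPKM in PBS 1, 37.0 in PAM3CSK4 1 and 33.0 in Zymosan 1, where the other libraries of those groups were at 56.4 to 59.98, 74.0 to 78.8 and 69.8 to 72.4 FPKM. EPRS was at 25.6, 33.6 and 25.5 FPKM in the same 3 libraries, and CARS at 20.5 FPKM in PBS 1 and 19.5 in PAM3CSK4 1. PBS 1 was also low for FARSB at 31.1, KARS at 63.9, CARS2 at 1.62 and LARS2 at 1.06 FPKM. PAM3CSK4 1 was low for DARS at 7.85, GARS at 34.5, IARS at 7.33 and PARS2 at 0.0614 FPKM. Zymosan 1 was low for TARS2 at 4.79 FPKM, against 6.17 to 6.19 in the other 3, and Morphine 2 for RARS2 at 1.12 FPKM, against 5.76 to 6.69. The cause was not tested.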

How the results depend on the processing

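The counts of called synthetases depended on scaling and on the 7 libraries that stood apart, while no setting called a mitochondrial synthetase higher with an agonist or any synthetase with morphine. With median-ratio rescaling 1 cytosolic gene was higher and 1 lower with LPS, 5 were higher and 0 lower with PAM3CSK4, 1 was higher and 0 lower with zymosan, and 4 and 1 mitochondrial genes were lower with LPS and PAM3CSK4. With the library-set term 11, 5 and 4 cytosolic genes were lower with LPS, PAM3CSK4 and zymosan, 5 and 3 were higher with the last pair, 8 and 4 mitochondrial genes were lower with them, and 2 synthetases differed between PAM3CSK4 and LPS and 1 between zymosan and LPS. With that term and rescaling 6, 9 and 7 cytosolic genes were higher with LPS, PAM3CSK4 and zymosan (21.0%, 21.4% and 16.3% of all genes). In the same fit 3, 0 and 0 cytosolic and 4, 5 and 1 mitochondrial genes were lower (20.7%, 21.4% and 15.9% of all genes). There 1 synthetase differed between PAM3CSK4 and LPS (0.147% of all genes). Here AARS (0.37), CARS (0.51), EPRS (0.25), HARS (0.33) and TARS (0.27) with LPS and GARS (0.22) and KARS (0.25) with PAM3CSK4 were called higher, against their sign over 20 libraries. In the 13 libraries alone 11, 4 and 5 cytosolic genes were lower, 6 and 3 were higher with PAM3CSK4 and zymosan, and 8 and 4 mitochondrial genes were lower with them. A pseudocount of 0.1 FPKM left 0 mitochondrial calls with zymosan. The cause was not tested.

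Leaving out each library gave 2 to 5 cytosolic and 3 to 7 mitochondrial genes lower with LPS (most cytosolic calls without PBS 1, fewest mitochondrial ones without LPS 2, and 4 without PBS 2), 0 to 1 cytosolic genes higher, 0 to 1 lower and 1 to 5 mitochondrial genes lower with PAM3CSK4, and 0 to 1 cytosolic genes lower with zymosan. The cytosolic count with LPS was 4 without LPS 3 or LPS 4. With PAM3CSK4 the mitochondrial count was 1 without PBS 2 or PBS 3 and 2 without PBS 4 or PAM3CSK4 1.

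The replicate numbers did not pair the libraries by the rule used, although 19 of 20 libraries correlated best with their own number. Correlations of deviations between libraries of the same number ran from -0.28 to 0.60 for number 2. For numbers 1, 3 and 4 they ran from 0.44 to 0.82. Number 2 was split between the library sets. Morphine 2 and LPS 2 were among the 7 libraries that stood apart, and PBS 2, PAM3CSK4 2 and Zymosan 2 were not. Whether this split lowered the correlations was not tested. A replicate block gave 11 lower cytosolic genes for LPS, 2 for PAM3CSK4 and 1 for zymosan. The higher cytosolic genes numbered 0, 1 and 1 in that order, and the lower mitochondrial genes 9, 6 and 1. No share of all tested genes is given for the block, so these counts have no background rate. Mitochondrial levels rested on few steps in some libraries, and differences of the lowest genes were limited by this.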
